A study of Mus musculus with 9 samples.

Results

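Mouse cells make the proteins of oxidative phosphorylation from 2 genomes, and the genes examined here are the structural genes of that system. They were taken as protein-coding genes of the mouse annotation GENCODE M21 whose symbols name a subunit of respiratory complexes I to IV, cytochrome c, the ATP synthase (also called complex V), or a protein encoded by mitochondrial DNA. The rule found 99 genes among 35896 with deposited values. Of these, 86 lie in the nucleus: 35 in complex I, 4 in complex II, 9 in complex III, 19 in complex IV, 18 in the ATP synthase and the cytochrome c gene Cycs. The other 13 are all the protein-coding genes of mitochondrial DNA, with 7 in complex I, 1 in complex III, 3 in complex IV and 2 in the ATP synthase. The members were chosen by symbol and not by their values.

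The respiratory chain passes electrons from NADH (through complex I) and succinate (through complex II) to ubiquinone, then through complex III and cytochrome c to oxygen at complex IV. Complexes I, III and IV pump protons across the inner mitochondrial membrane, and the ATP synthase uses the returning protons to make ATP. Complex II is built from nuclear genes alone and also works in the citric acid cycle, whereas the other complexes need subunits from both genomes.

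Poly-A RNA was sequenced from E14 cells, an established line of mouse embryonic stem cells (ESCs), in 3 groups of 3 biological replicates that the study describes as paired. Control cells with LIF2i stayed in self-renewal medium, in which LIF is joined by inhibitors of the kinases MEK and GSK3β (together LIF2i). Withdrawn control cells spent 72 h without LIF2i, and CK666 cells spent the same 72 h without LIF2i in 80 µM CK666, an inhibitor of the actin-nucleating Arp2/3 complex. The study used them to ask how Arp2/3 activity bears on the exit from self-renewal. CK666 was dissolved in DMSO. DMSO is not mentioned for the control cultures, so drug and solvent cannot be told apart. The labels name no genetic change in the cells and no other line.

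The libraries held 16894327 to 22550952 estimated counts. Levels are given below as CPM, gene counts over the library total, scaled between libraries by the TMM method of edgeR, or as TPM, the deposited length-corrected value, where genes are compared with each other. The summed level of 10 ESC markers was 5155 to 6201 CPM with LIF2i, 1439 to 1602 after withdrawal and 1657 to 2032 with CK666. The 9 formative-state markers went the other way, from 551 to 599.6 CPM with LIF2i to 1700 to 3695 after withdrawal and 1136 to 3255 with CK666. Sums of 8 fibroblast markers were 12.5 to 28.3 CPM with LIF2i, 32.6 to 44.8 after withdrawal and 22.5 to 31.8 with CK666, with Lum at or under 3 counts in each library, and 4 of the 6 tested were called raised by withdrawal (21.1% of all genes were), 2 of 6 without the replicate block or with a length offset. Trophoblast markers summed to 126 to 149, 162 to 400 and 118 to 384 CPM, and the 7 two-cell-like markers to 1.46 to 2.6, 4.49 to 9.91 and 1.09 to 4.02, with Tcstv1 and Tcstv3 at or under 3 counts. For these 3 lists the withdrawn libraries all lay above the LIF2i libraries. Primitive endoderm markers summed to 392 to 532 CPM with LIF2i, 135 to 258 after withdrawal and 166 to 262 with CK666. Of the 9 tested, however, 6 had a log2 fold change above 0 on withdrawal (median 0.87), with 2 called raised and 2 lowered. Without replicate 1 it was 3 of 7 (median -0.22). Among 6 trophoblast markers tested, 3 were called raised and 1 lowered, where 21.1% of all genes were raised and 19.7% lowered. The part of these shifts in cell state in any change of the members was not tested. In bulk RNA, fewer cells of a type and less RNA per cell cannot be told apart.

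Most members are short genes, and the replicate 1 libraries held few of their counts. The 81 nuclear members tested have a median effective length of 466 bases, against 2157 bases for all 14648 genes tested. For the 34 nuclear members under 400 bases, the median log2 CPM in replicate 1 minus the mean of replicates 2 and 3 was -2.35, -1.50 and -1.31 in the LIF2i, withdrawn and CK666 groups. It was -1.49, -0.84 and -0.71 for the 26 members of 400 to 800 bases and -0.38, -0.20 and -0.060 for the 21 longer ones. All tested genes under 400 bases, 415 in number, showed -1.33, -1.01 and -0.92, and genes of 800 bases and over showed 0.012, 0.036 and -0.0057. Ndufa7, an accessory subunit of complex I with an effective length of 259.9 bases, read 22.5, 201 and 168 CPM with LIF2i, 51.3, 162 and 128 after withdrawal and 47.2, 159 and 142 with CK666. In every group its lowest library was replicate 1. The fit matched libraries by replicate number, and counts of called members are given with and without replicate 1. The shortfall of replicate 1 was deepest in the LIF2i group, and its part in the fold changes of short members was not tested.

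**Figure D1:**
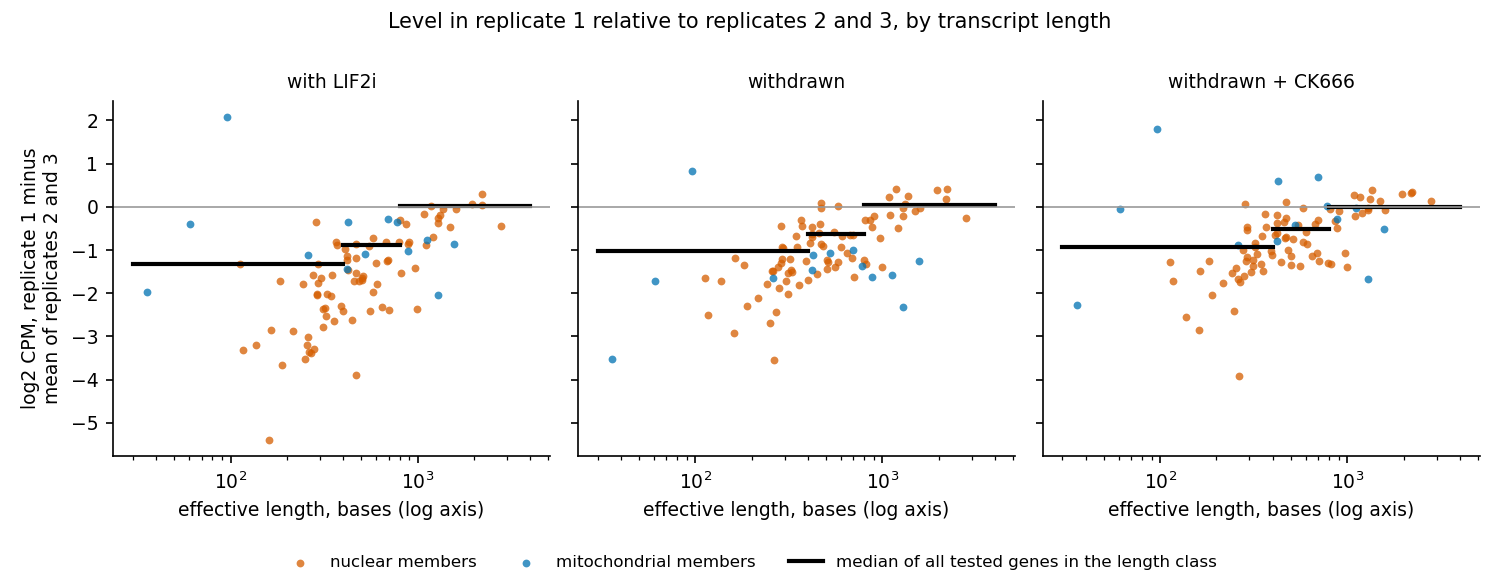
Log2 CPM in replicate 1 minus the mean of replicates 2 and 3 (0.5 CPM added to each, vertical axis) against effective length in bases (log axis) for the 94 tested members in the 3 groups; black bars are medians of all tested genes in 3 length classes. Nuclear members under 400 bases lie mostly below 0, with medians of -2.35, -1.50 and -1.31, while those of 800 bases and over lie near 0.

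The members ranged widely in level. Of the nuclear genes, Atp5b, the catalytic beta subunit of the ATP synthase, had the highest mean at 2551 TPM over all 9 libraries. Cox4i1 led the nuclear genes of complex IV with 1121 TPM, Ndufa7 those of complex I with 594, Uqcr10 those of complex III with 414 and Sdha those of complex II with 215. Cycs stood at 39.5 TPM. Complex II was even, its 4 genes spanning 133 to 215 TPM. Mitochondrial genes ranged from 356 TPM for mt-Nd2 to 5112 for mt-Co1, the catalytic subunit of complex IV. Mitochondrial messages carry short poly-A tails, and how well poly-A selection kept them was not tested. Of 99 members, 94 passed the filter on low counts. The other 5, Cox6a2, Cox7b2, Cox8b, Cox8c and a second annotated Atp5o locus, never exceeded 1.09 CPM.

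Together the 86 nuclear genes held 1.59%, 2.83% and 2.7% of all TPM in the LIF2i libraries 1 to 3, 1.61%, 2.15% and 2.2% after withdrawal and 1.72%, 2.29% and 2.21% with CK666. The group means of the nuclear share were 2.38% ± 0.679, 1.99% ± 0.331 and 2.07% ± 0.311 (SD, n = 3), with overlapping ranges. Replicate 1 was lowest in each group, and within replicates 2 and 3 the withdrawn libraries lay below their LIF2i partners. The 13 mitochondrial genes held 1.35%, 1.75% and 2.14% with LIF2i, 1.2%, 1.98% and 3.22% after withdrawal and 2.02%, 2.2% and 2.51% with CK666. Withdrawn replicate 3 held the highest mitochondrial share and withdrawn replicate 1 the lowest, so this group spanned the other 2. Nuclear genes of complex II stood lower in every withdrawn library than in its LIF2i partner, at 0.0893%, 0.0723% and 0.0673% with LIF2i and 0.0625%, 0.0551% and 0.0555% after withdrawal, and those of the ATP synthase at 0.744%, 0.782% and 0.785% with LIF2i and 0.729%, 0.634% and 0.681% after it. Over protein-coding transcripts alone, the ATP synthase genes of replicate 1 went the other way, from 0.651% to 0.67%. The ratio of the mitochondrial to the nuclear share was 0.848, 0.62 and 0.79 with LIF2i, 0.748, 0.918 and 1.46 after withdrawal and 1.18, 0.957 and 1.14 with CK666. These sums over chosen genes were not tested.

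**Figure D2:**
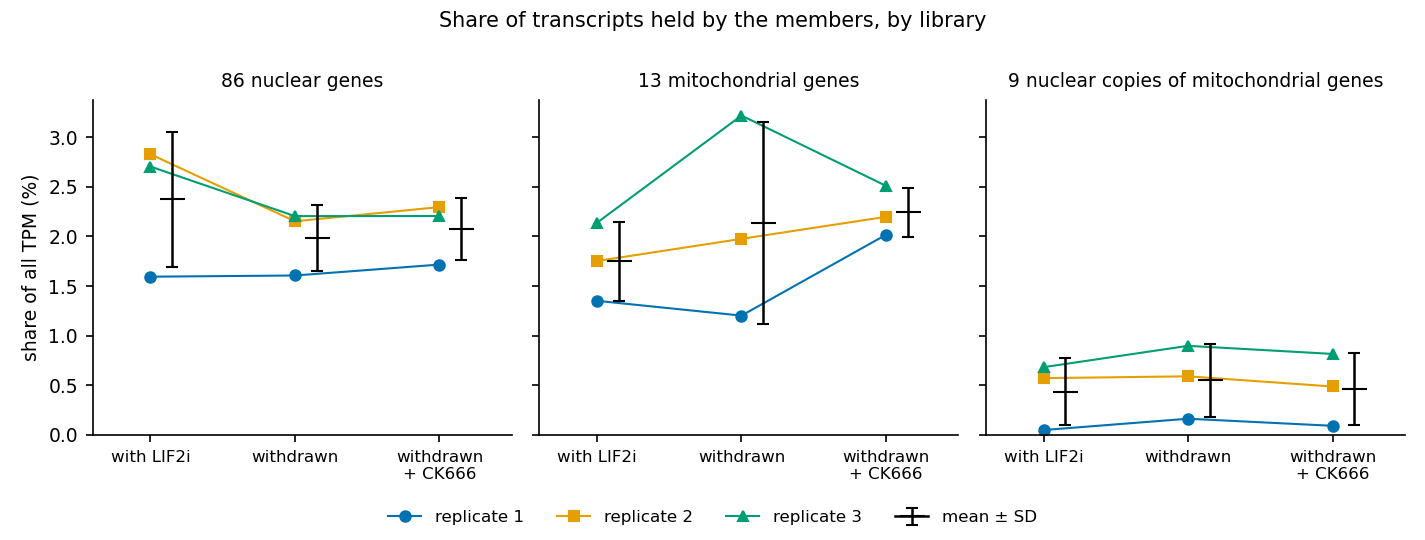
Share of all TPM (percent, vertical axis) held by the nuclear members, the mitochondrial members and 9 nuclear copies of mitochondrial genes in each library; lines join libraries with the same replicate number, and black bars are group means ± SD (n = 3). Replicate 1 is the lowest library in every group of each panel, and the withdrawn replicate 3 library has the highest mitochondrial share at 3.22%.

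Withdrawal of LIF2i lowered 20 of the 81 tested nuclear members and raised 0. With edgeR's quasi-likelihood test and Benjamini-Hochberg adjustment over 14648 genes, 20 of 81 nuclear members were called lowered at an adjusted p under 0.05, and 0 were called raised. Of all tested genes, 19.7% were called lowered and 21.1% raised. The share of lowered nuclear members, 24.7%, is near that background. No raised nuclear member stands beside the 21.1% of all genes. The median log2 fold change of the 81 was -0.25, against 0.0062 over all tested genes, and 61 of 81 were below 0, against 49.5% of all genes. The median was -0.14 on log2 TPM, with 54 of 81 below 0, and -0.36 without replicate 1, with 69 of 82 below 0. The 20 called members had log2 fold changes from -1.97 to -0.31, lower in all 3 pairs for each of the 20. For 8 of them the 3 withdrawn libraries lay entirely below the 3 LIF2i libraries. That is 9.88% of the tested nuclear members, where 15.4% of all tested genes were called lowered without overlap, and each of those 8 has an effective length of at least 800 bases. By length, 5 of 34 nuclear members under 400 bases were lowered (14.7%, against 8.19% of all genes of that length), 4 of 26 of 400 to 800 bases (15.4%, against 11.6%) and 11 of 21 of 800 bases and over (52.4%, against 20.7%). With a length offset in the fit, 17 nuclear members were called lowered, beside 16.6% of all genes. In complex II 3 of 4 members were lowered, in complex III 3 of 9, in complex IV 5 of 15 tested, in complex I 6 of 35 and in the ATP synthase 3 of 17. With the length offset the counts were 3, 3, 4, 7 and 0 in the same order, so no ATP synthase call remained, and on log2 TPM 1 was called.

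The number called depended on the replicates. Without replicate 1, 45 of 82 nuclear members were called lowered and 0 raised, where 21.0% of 14716 tested genes were lowered and 23.7% raised. All 20 members called with every library were among these 45. Without replicate 2 the count was 3 lowered and 2 raised (all genes 11.7% and 13.6%), and without replicate 3 it was 4 lowered and 0 raised (all genes 9.54% and 11.2%). Without the replicate block 2 were called lowered, Sdhc among them, beside 10.8% of all genes. Leaving out the LIF2i replicate 1 library alone gave 44 lowered (all genes 19.5%), and LIF2i replicate 2 or 3 gave 12 or 9 (all genes 15.9% or 13.5%). Withdrawn replicate 2 or 3 gave 11 each (all genes 13.4% or 12.7%).

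**Figure D3:**
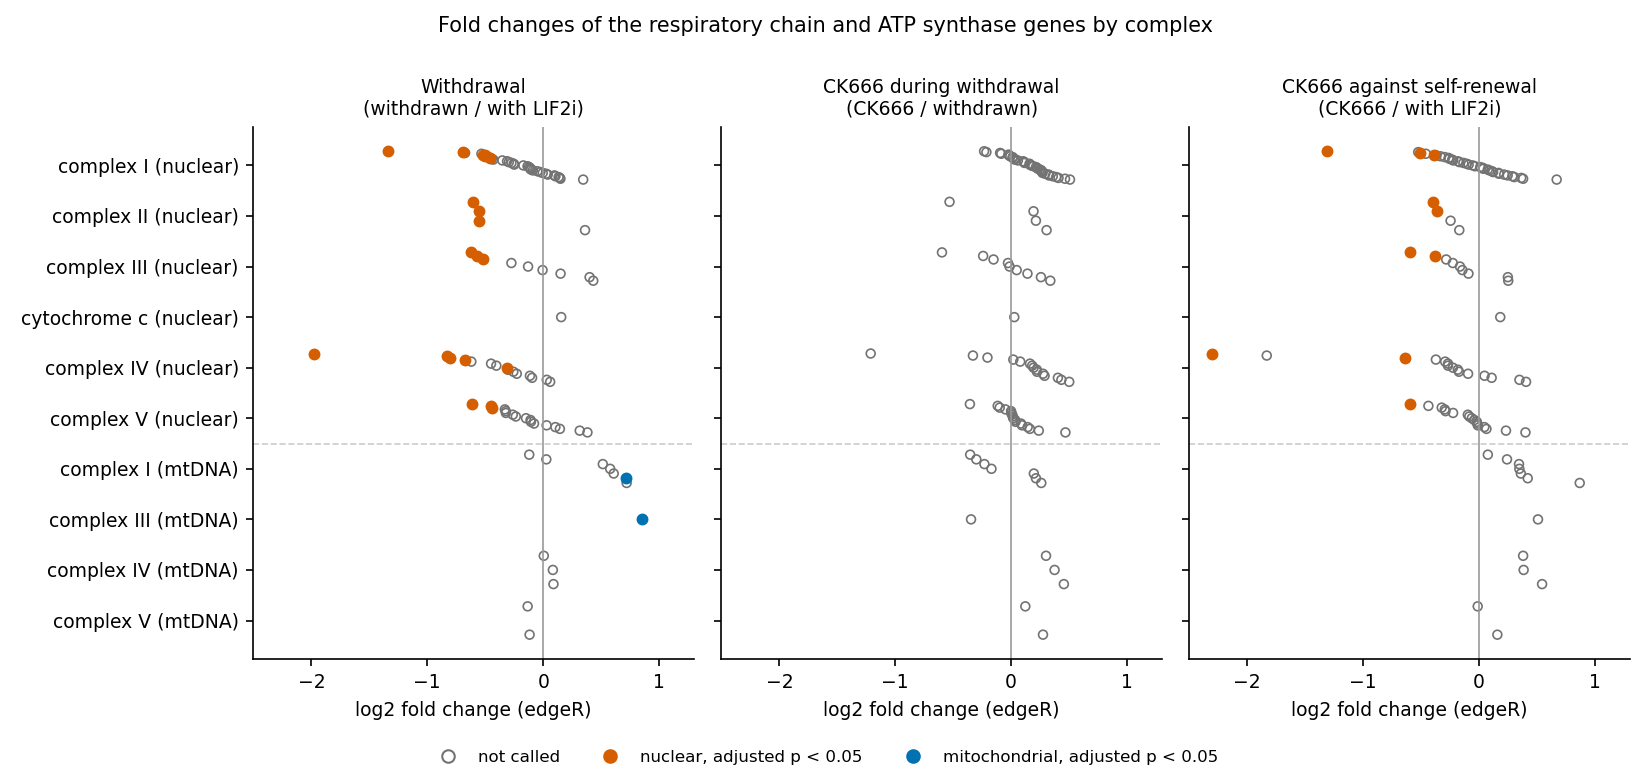
Log2 fold change (horizontal axis) of each tested member by complex and genome in the 3 comparisons; filled points have an adjusted p under 0.05 in the fit with all 9 libraries and open points do not. In the withdrawal panel 20 nuclear members lie left of 0 as filled points and 2 mitochondrial members, mt-Cytb and mt-Nd2, lie right of 0; the middle panel has no filled point.

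In complex I the largest fall was in Ndufb4, an accessory subunit of the membrane arm (ENSMUSG00000022820.4, chr16:37647170-37654453, minus strand). Its levels were 17, 46.5 and 36.1 CPM with LIF2i, 6.8, 17.4 and 14.9 after withdrawal and 7.39, 18.1 and 14 with CK666. Each withdrawn library was lower than its LIF2i partner, although the low LIF2i replicate 1 value made the ranges overlap. The log2 fold change was -1.34 ± 0.15 (SE), adjusted p = 0.000152. Ndufb5, another membrane-arm accessory subunit, had 34.4, 104 and 96.2 CPM with LIF2i and 29.6, 56.6 and 51.2 after withdrawal (log2 fold change -0.69 ± 0.17 (SE), adjusted p = 0.0113). Its exons share 12.3% of their bases with another gene. Ndufv2, a core iron-sulfur subunit beside the NADH site, went from 102, 131 and 122 to 72.3, 95.8 and 82.7 CPM, without overlap (log2 fold change -0.50 ± 0.11 (SE), adjusted p = 0.00576). Ndufv1, which binds NADH, and the accessory subunit Ndufa9 were also called lowered. Over the 35 nuclear members of complex I the median log2 fold change was -0.17, and 27 were below 0.

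In complex II 3 of the 4 subunit genes fell by similar amounts. Sdha, the flavoprotein that oxidises succinate, read 336, 316 and 326 CPM with LIF2i, 266, 220.1 and 188 after withdrawal and 315, 259.7 and 255 with CK666. The withdrawn libraries lay below all LIF2i libraries, with a log2 fold change of -0.55 ± 0.12 (SE), adjusted p = 0.00517. Sdhb, the iron-sulfur subunit, read 81.3, 153 and 140.3 CPM with LIF2i, 63.8, 91 and 85.5 after withdrawal and 73.1, 103 and 103 with CK666, lower in each pair but with overlapping ranges because of LIF2i replicate 1 (-0.61 ± 0.12 (SE), adjusted p = 0.00333). Sdhc, a membrane anchor, read 90.0, 126 and 112 CPM with LIF2i, 64.2, 80.1 and 78.3 after withdrawal and 72.5, 89.9 and 92.3 with CK666, without overlap between the first 2 groups (-0.56 ± 0.11 (SE), adjusted p = 0.00277). Sdhd, the other anchor, was not called and read 44.9, 136 and 104 CPM with LIF2i, 79.3, 129 and 134 after withdrawal and 46.8, 91.8 and 107 with CK666. Its withdrawn libraries were higher in replicates 1 and 3 and lower in replicate 2, and its log2 fold change was 0.36 ± 0.17 (SE), adjusted p = 0.117. Without replicate 1 the values were -0.63 for Sdha, -0.71 for Sdhb, -0.56 for Sdhc and 0.16 for Sdhd, with the first 3 called again.

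**Figure D4:**
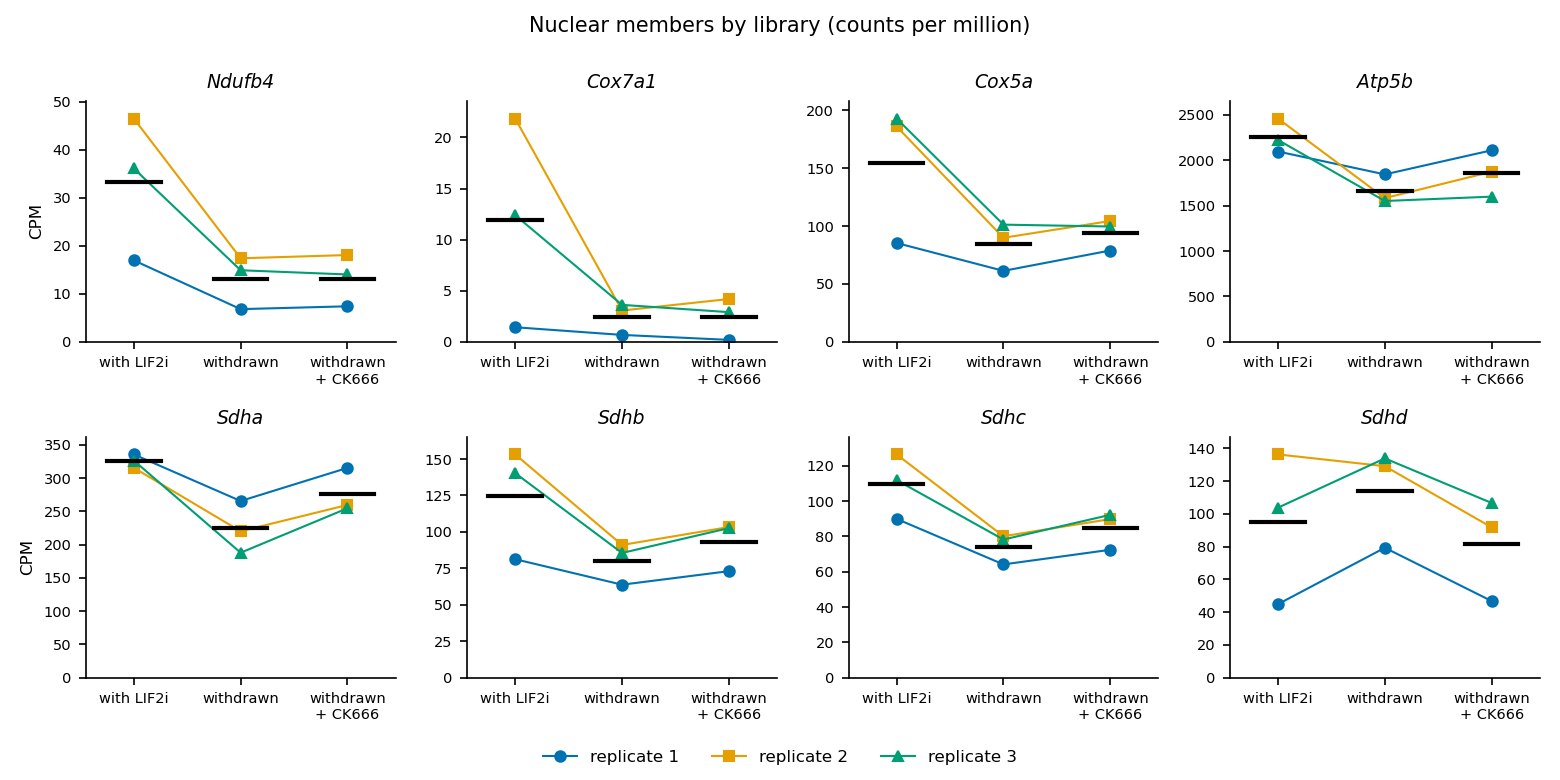
CPM (vertical axes, each from 0) of 8 nuclear members in the 9 libraries by group; coloured lines join libraries with the same replicate number and black bars are group means (n = 3). Ndufb4, Cox7a1, Cox5a, Sdha, Sdhb and Sdhc are lower in each withdrawn library than in its LIF2i partner, as is Atp5b, while Sdhd is lower in replicate 2 only.

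In complex III the core protein Uqcrc1 went from 164, 174 and 164 CPM with LIF2i to 131, 117 and 104 after withdrawal, without overlap (log2 fold change -0.52 ± 0.12 (SE), adjusted p = 0.00714). The small subunits Uqcrb (-0.62 ± 0.15 (SE), adjusted p = 0.0087) and Uqcr10 (-0.57 ± 0.15 (SE), adjusted p = 0.0133) were also lowered, from 32.3, 95.3 and 99.4 to 22.9, 56.4 and 65.5 CPM and from 30.2, 112 and 88.6 to 24.1, 58.8 and 65.4 CPM. Both are under 400 bases, and both overlapped between groups only through LIF2i replicate 1. The other 6 nuclear members of complex III were not called, with log2 fold changes between -0.27 and 0.43.

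Complex IV held the member with the largest fall, Cox7a1. It encodes the heart and muscle isoform of a small subunit (ENSMUSG00000074218.3, chr7:30184144-30186078, plus strand) and read 1.43, 21.9 and 12.4 CPM with LIF2i, 0.675, 3.06 and 3.62 after withdrawal and 0.19, 4.19 and 2.9 with CK666. It was low in all groups and nearly absent from replicate 1, and its log2 fold change was -1.97 ± 0.39 (SE), adjusted p = 0.00348. Its ubiquitous counterpart Cox7a2 read 16.1, 85.8 and 75 CPM with LIF2i and 27.9, 60.9 and 72.9 after withdrawal (0.030 ± 0.24 (SE), adjusted p = 0.936). Cox7a2l, a related protein that helps to join complexes III and IV, was also lowered (-0.31 ± 0.10 (SE), adjusted p = 0.0392). Cox5a, a subunit on the matrix side, went from 85.4, 186 and 193 to 61.3, 89.8 and 101 CPM (-0.83 ± 0.16 (SE), adjusted p = 0.0029), and 12.8% of its exonic bases lie in another gene. Cox6a1, the ubiquitous form of a subunit whose muscle form is Cox6a2, went from 61.1, 345 and 285 to 52.1, 152 and 153 CPM (-0.81 ± 0.21 (SE), adjusted p = 0.0129). Cox8a went from 65.5, 300.4 and 229 to 60.0, 133 and 145 CPM (-0.67 ± 0.19 (SE), adjusted p = 0.0179). The muscle and testis forms Cox6a2, Cox8b, Cox8c and Cox7b2 stayed at or under 1.09 CPM in all libraries. Cox6b2, a testis form, was present at 2.6, 35.3 and 27.3 CPM with LIF2i and 2.12, 29.3 and 31.3 after withdrawal, against 22.3, 151 and 132 and 27.4, 89.9 and 105 for the ubiquitous Cox6b1. Cox4i1 had a log2 fold change of -0.40 ± 0.17 (SE), adjusted p = 0.0902, Cox6b1 of -0.30 ± 0.22 (SE), adjusted p = 0.299 and Cox7b of -0.45 ± 0.21 (SE), adjusted p = 0.124. Without replicate 1 these 3 were called lowered, at -0.63, -0.52 and -0.65. Cox4i2, the lung form, read 0, 8.36 and 5.47 CPM with LIF2i, 2.27, 2.6 and 1.57 after withdrawal and 0.806, 1.19 and 0.949 with CK666 and was likewise called lowered without replicate 1, whose LIF2i library held 0 counts of it. With all libraries it was at -0.62 ± 1.12 (SE), adjusted p = 0.696.

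In the ATP synthase, Atp5b went from 2097, 2460.5 and 2224 CPM with LIF2i to 1845, 1584 and 1552 after withdrawal, without overlap (log2 fold change -0.45 ± 0.14 (SE), adjusted p = 0.0306). Atp5c1, the gamma subunit of the central stalk, fell by 0.44 on the log2 scale (adjusted p = 0.0484). The 3 genes for the proton-carrying c subunit, whose mature protein is the same, gave different values. Atp5g1 went from 53.9, 127 and 128 to 51.4, 71.5 and 70.4 CPM (-0.61 ± 0.20 (SE), adjusted p = 0.0351), Atp5g3 from 56.9, 183 and 193 to 123, 176 and 199 (0.32 ± 0.25 (SE), adjusted p = 0.341) and Atp5g2 from 11.9, 28 and 27.6 to 18.9, 29.6 and 20.6 (0.10 ± 0.20 (SE), adjusted p = 0.713). Atp5g1 was the one called, and the difference between the 3 genes was not tested. Atp5g2 shares 37.5% of its 31-base words with other genes, chiefly the transcribed pseudogene Gm10175, so its counts are uncertain. With the length offset none of the 17 ATP synthase members tested was called. Cycs had a log2 fold change of 0.16 ± 0.15 (SE), adjusted p = 0.444.

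The promoters of nuclear respiratory genes often carry sites for NRF1, a factor named for its action on these genes, and for ETS proteins such as GABP. Promoters of 300 bases, 250 before and 50 after the annotated start, were taken from RefSeq (GRCm38.p6) and matched 67 nuclear members. The NRF1 letters GCGCANGCGC occurred on either strand in 17 of 67 (25.4%), against 5.19% of all 27025 genes with a promoter of this length. A gene counted when any of its promoters held a match. The ETS letters CCGGAAG occurred in 16 of 67 (23.9%, against 9.93%) and the YY1 letters AANATGGC in 16 of 67 (23.9%, against 6.96%). The letters TNAAGGTCA of an ERR element occurred in 3 of 67 (4.48%, against 1.43%). Among the 17 lowered members with a promoter, NRF1 letters occurred in 5, ETS letters in 3, YY1 letters in 3 and ERR letters in 1. A match describes letters only and shows neither binding nor a cause. The promoters of 5 members described above are printed to show the span from 3 NRF1 matches to none: Ndufb4 (chr16:37654319-37654618, minus strand), Sdha (chr13:74350191-74350490, minus strand), Cox6a1 (chr5:115348909-115349208, minus strand), Sdhb (chr4:140961021-140961320, plus strand) and Cox7a1 (chr7:30183921-30184220, plus strand). Capitals mark the NRF1, ETS and ERR matches, on either strand, and in these 5 promoters no match overlaps one of another motif.
Ndufb4: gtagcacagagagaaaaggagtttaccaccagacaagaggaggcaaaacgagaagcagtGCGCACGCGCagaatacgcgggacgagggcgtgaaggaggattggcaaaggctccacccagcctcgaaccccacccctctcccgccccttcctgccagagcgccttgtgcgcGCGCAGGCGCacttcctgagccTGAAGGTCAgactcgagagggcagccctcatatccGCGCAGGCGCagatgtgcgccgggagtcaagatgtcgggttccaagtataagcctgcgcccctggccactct
Sdha: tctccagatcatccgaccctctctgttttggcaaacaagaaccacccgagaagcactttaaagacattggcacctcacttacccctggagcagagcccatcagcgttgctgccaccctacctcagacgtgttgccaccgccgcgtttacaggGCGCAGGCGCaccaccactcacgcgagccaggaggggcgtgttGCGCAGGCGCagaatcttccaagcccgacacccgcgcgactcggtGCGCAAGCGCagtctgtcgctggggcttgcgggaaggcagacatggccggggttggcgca
Cox6a1: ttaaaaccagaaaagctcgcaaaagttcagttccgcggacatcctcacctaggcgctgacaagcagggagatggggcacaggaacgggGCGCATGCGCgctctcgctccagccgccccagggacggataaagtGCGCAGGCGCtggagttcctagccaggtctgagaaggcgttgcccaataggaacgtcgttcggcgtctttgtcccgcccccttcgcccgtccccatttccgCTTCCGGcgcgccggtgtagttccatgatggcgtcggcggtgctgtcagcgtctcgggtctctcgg
Sdhb: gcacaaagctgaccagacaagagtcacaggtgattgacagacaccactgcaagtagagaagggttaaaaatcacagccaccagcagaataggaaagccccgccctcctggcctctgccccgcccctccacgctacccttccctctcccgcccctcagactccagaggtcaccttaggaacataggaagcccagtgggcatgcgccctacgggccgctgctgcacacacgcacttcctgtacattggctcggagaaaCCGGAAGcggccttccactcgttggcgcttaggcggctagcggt
Cox7a1: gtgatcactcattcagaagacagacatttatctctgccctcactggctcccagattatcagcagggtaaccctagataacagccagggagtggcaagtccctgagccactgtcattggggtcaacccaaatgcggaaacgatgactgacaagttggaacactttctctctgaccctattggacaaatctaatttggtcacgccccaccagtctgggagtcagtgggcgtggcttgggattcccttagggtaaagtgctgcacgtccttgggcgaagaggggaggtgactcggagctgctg
Ndufb4 has NRF1 letters in 3 places and the ERR letters once, Sdha NRF1 letters in 3 places, Cox6a1 NRF1 letters in 2 places with 1 reversed ETS match, Sdhb 1 ETS match and Cox7a1 none of these.

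The mitochondrial genes gave no lowered member after withdrawal. In edgeR, 2 of 13 were called raised and 0 lowered, where 21.1% of all genes were raised and 19.7% lowered, and 3 of 13 had an unadjusted p under 0.05, beside 48.7% of all genes. DESeq2 raised 3, beside 22.9% of all genes. The median log2 fold change was 0.089, and it was 0.27 without the block, 0.27 with nuclear copies summed and 0.33 without replicate 1. mt-Cytb, the only mitochondrial subunit of complex III (ENSMUSG00000064370.1, chrM:14145-15288, plus strand), read 209.9, 309 and 538 CPM with LIF2i, 282, 584 and 1165 after withdrawal and 401, 406 and 573 with CK666. It was higher after withdrawal in each pair and highest in withdrawn replicate 3, and the groups overlapped (log2 fold change 0.85 ± 0.24 (SE), adjusted p = 0.0173). mt-Nd2, a membrane subunit of complex I, read 129, 117 and 209.9 CPM with LIF2i, 131, 202 and 479 after withdrawal and 193, 139 and 239.8 with CK666 and was raised in the same pattern (0.71 ± 0.25 (SE), adjusted p = 0.0445). Its replicate 1 pair differed little. mt-Nd4 read 257, 318 and 554 CPM with LIF2i, 285, 564 and 1139 after withdrawal and 461, 383 and 562 with CK666 (0.72 ± 0.26 (SE), adjusted p = 0.0551), and mt-Nd1 read 357, 362 and 501 CPM with LIF2i, 365, 475 and 987 after withdrawal and 691, 327 and 528 with CK666 (0.51 ± 0.30 (SE), adjusted p = 0.205). Both were highest in withdrawn replicate 3.

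No mitochondrial gene of complex IV or the ATP synthase was called. mt-Co1 read 1407, 6147 and 5358 CPM with LIF2i, 1317, 5230.4 and 7902 after withdrawal and 2428, 7582 and 7762 with CK666, with replicate 1 far below the others (0.089 ± 0.20 (SE), adjusted p = 0.752). mt-Co3 read 799, 1556 and 1828 CPM with LIF2i, 852, 1562 and 2033 after withdrawal and 1412, 1684 and 2083 with CK666 (0.083 ± 0.17 (SE), adjusted p = 0.725), mt-Co2 had 0.0052 ± 0.34 (SE), adjusted p = 0.993, mt-Atp6 -0.12 ± 0.18 (SE), adjusted p = 0.642 and mt-Atp8 -0.13 ± 0.32 (SE), adjusted p = 0.766. For complex I, mt-Nd5 had 0.027 ± 0.18 (SE), adjusted p = 0.922 and mt-Nd6, the only one on the other strand, -0.12 ± 0.19 (SE), adjusted p = 0.644. The short mt-Nd4l (0.58 ± 0.32 (SE), adjusted p = 0.182) and mt-Nd3 (0.61 ± 0.32 (SE), adjusted p = 0.162) were not called. Without replicate 1, where 23.7% of all genes were raised, 6 of 13 were called raised: mt-Nd1, mt-Nd2, mt-Nd3, mt-Nd4, mt-Nd4l and mt-Cytb, with mt-Nd2 at 1.02 and mt-Cytb at 1.05. Without the block, without replicate 2 or without replicate 3, 0 were called, where 13.1%, 13.6% and 11.2% of all genes were raised. Leaving out any 1 LIF2i library, or withdrawn replicate 2 or 3, also left 0, where 15.1% to 22.3% of all genes were raised. Leaving out withdrawn replicate 1 gave 6 (all genes 17.1%) and leaving out CK666 replicate 2 gave 1 (all genes 18.5%). Whether the mitochondrial genes of different complexes differed from each other was not tested.

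**Figure D5:**
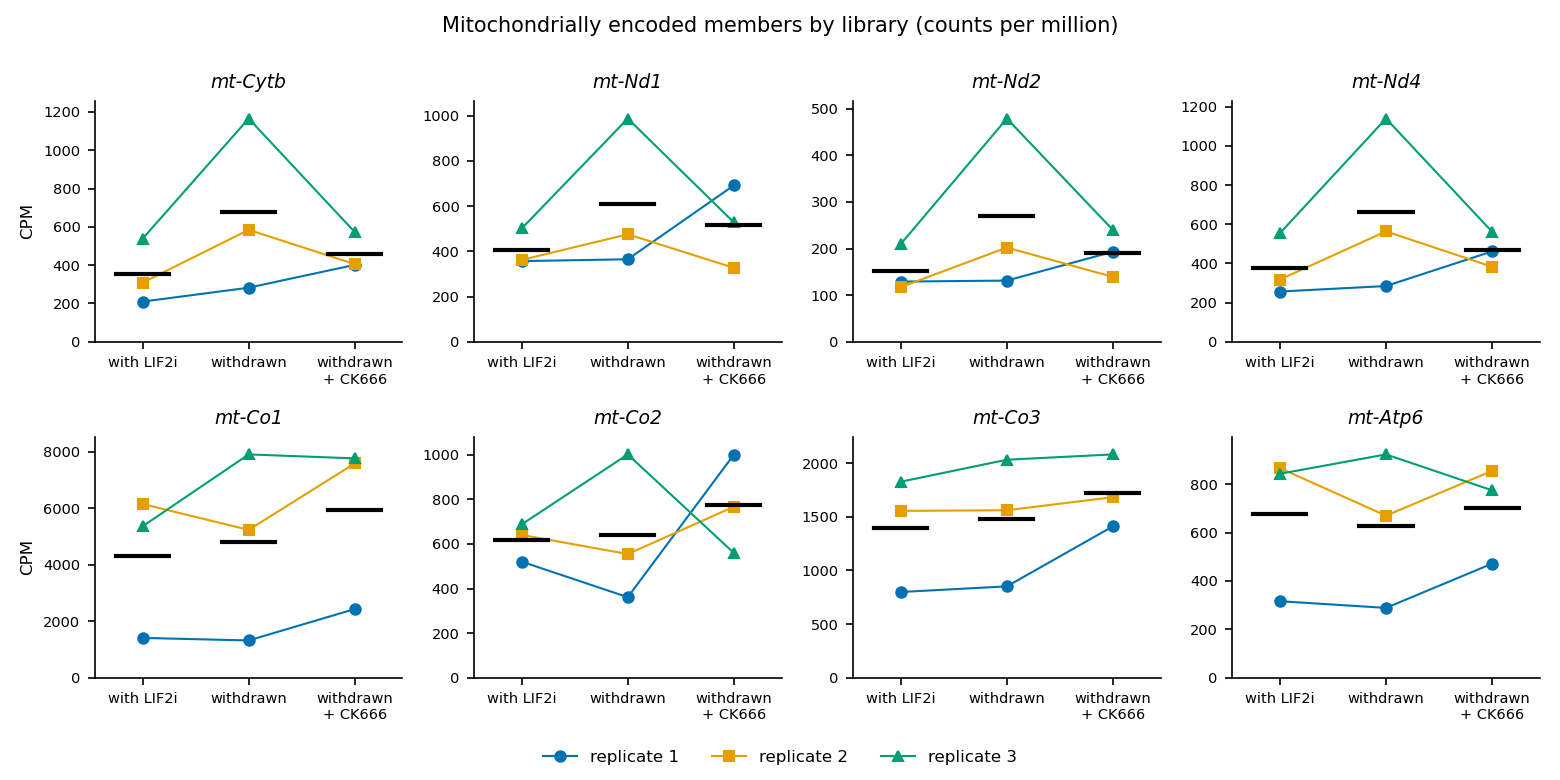
CPM (vertical axes, each from 0) of 8 mitochondrially encoded members in the 9 libraries by group; coloured lines join libraries with the same replicate number and black bars are group means (n = 3). mt-Cytb, mt-Nd1, mt-Nd2 and mt-Nd4 are highest in the withdrawn replicate 3 library, and mt-Co1, mt-Co3 and mt-Atp6 are lowest in replicate 1 of each group.

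Counts of several mitochondrial genes were divided with copies of mitochondrial DNA in the nuclear genome. A block on chromosome 1, chr1:24611535-24616197 (GRCm38), holds annotated pseudogenes that match mt-Co1, mt-Co2, mt-Atp6, mt-Co3, mt-Nd3, mt-Nd4l and mt-Nd4. Over the aligned bases the copies of mt-Co2 (681 bases), mt-Atp6 (678), mt-Co3 (783), mt-Nd4l (294) and mt-Nd4 (876) are identical to their mitochondrial genes. The copy of mt-Nd3, Gm28438, differs by the single change T3C, counted from the first base of mt-Nd3. mt-Nd3 also runs 348 bases, against 345 in the copy. The first 30 bases of both are shown because they hold the single difference within the aligned bases, in capitals.
mt-Nd3: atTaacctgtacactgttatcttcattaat
Gm28438: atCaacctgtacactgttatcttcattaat
Gm28438 received 298, 391 and 731 estimated counts in LIF2i libraries 1 to 3, beside 1452, 160 and 404 for mt-Nd3. The copy of mt-Co2, Gm28661, received 21, 11096 and 10043 beside 10590, 12252 and 11324, and in the CK666 libraries 175, 8505 and 15424 beside 21111, 13544 and 10018. The replicate 1 libraries with LIF2i or CK666 thus gave almost all of these reads to mt-Co2, while replicates 2 and 3 divided them. For mt-Nd4 the copy, Gm28439, received 1619 counts beside 5222 in LIF2i replicate 1 (23.7% of both) and at most 2 in any other library. The copy of mt-Co1, Gm29216, took 9% and 9.49% of the counts of both in LIF2i replicates 2 and 3 and 0% in LIF2i replicate 1. The copy of mt-Atp6, Gm10925, took 0%, 9.06% and 23.5% of the counts of both in LIF2i libraries 1 to 3 and 0.1%, 43.8% and 42.1% after withdrawal. The deposited counts of mt-Co2, mt-Nd3, mt-Atp6, mt-Co3, mt-Nd4 and mt-Co1 therefore depend on how identical reads were allotted. With the copy added, the log2 fold change of mt-Nd4 on withdrawal was 0.60 (adjusted p = 0.109). With its copy added, mt-Atp6 was no longer below 0 on withdrawal. With the copies added to their genes, a setting chosen after seeing the data, mt-Nd3 was also called raised by withdrawal (0.62, adjusted p = 0.0265), beside mt-Cytb and mt-Nd2. These last 2 share 6.55% and 13.5% of their 31-base words with other genes, and no copy was added to them.

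CK666 given during withdrawal left no member past the threshold. With all libraries, 0 of 81 nuclear and 0 of 13 mitochondrial members were called in either direction by edgeR, where 1.15% of all tested genes were called raised and 0.894% lowered. At an unadjusted p under 0.05 there were 8 nuclear members and 1 mitochondrial member, beside 19.7% of all genes. DESeq2 lowered 2 nuclear members, beside 3.8% of all genes. The median log2 fold change of the nuclear members was 0.11, 60 of 81 were above 0, and the median of all genes was 0.017. Without replicate 1 the median was 0.043, and on log2 TPM it was 0.077. The log2 fold change of Ndufb4 was 0.028 ± 0.15 (SE), adjusted p = 0.947, that of Cox5a 0.19 ± 0.16 (SE), adjusted p = 0.553, and that of Sdha 0.31 ± 0.12 (SE), adjusted p = 0.193. Sdhd, the anchor not lowered by withdrawal, read 79.3, 129 and 134 CPM in withdrawn and 46.8, 91.8 and 107 CPM in CK666 libraries, lower in each pair (-0.53 ± 0.17 (SE), adjusted p = 0.126). Cox6b2 read 2.12, 29.3 and 31.3 and 2.56, 53.6 and 38.3 CPM, higher in each pair (0.50 ± 0.18 (SE), adjusted p = 0.173). A p above the threshold does not show that the groups are alike.

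Without replicate 1 this changed for the mitochondrial genes. CK666 libraries 2 and 3 then had lower mt-Nd1 (-0.75, adjusted p = 0.0114), mt-Nd2 (-0.79, adjusted p = 0.00661), mt-Nd4 (-0.81, adjusted p = 0.0045), mt-Nd4l (-0.73, adjusted p = 0.0384) and mt-Cytb (-0.79, adjusted p = 0.00595) than withdrawn libraries 2 and 3. In the replicate 1 pair these genes were higher with CK666: mt-Nd1 went from 365 to 691 CPM and mt-Cytb from 282 to 401. Replicate 1 thus went against the other 2. The same withdrawn libraries serve in both comparisons, and withdrawn replicate 3 was high for these 5 genes. Of the nuclear members without replicate 1, Ndufa13 was called raised (0.48, adjusted p = 0.0344) and Uqcrh (-0.63, adjusted p = 0.015) and Atp5g3 (-0.47, adjusted p = 0.0184) lowered. Ndufa13 and Uqcrh are named here after their values were seen, and 29.98% of the exonic bases of Ndufa13 lie in another gene. In that fit 6.12% of all genes were raised and 6.19% lowered.

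Measured against self-renewing cells, the CK666 cells had 10 of 81 nuclear members lowered and 0 raised, where 17.1% of all tested genes were lowered and 19.8% raised. The median of the 81 was -0.14 on the log2 scale, -0.23 without the block and -0.33 without replicate 1. Of the 10, 9 were lower in all 3 pairs and 3 had no overlap between the groups, which was not counted over all genes. The 10 included Cox7a1 (-2.30 ± 0.39 (SE), adjusted p = 0.00165), Ndufb4 (-1.31 ± 0.15 (SE), adjusted p = 0.000197), Cox5a (-0.64 ± 0.16 (SE), adjusted p = 0.0124), Atp5g1, Uqcr10, Ndufv2, Uqcrc1, Sdhb and Sdhc, the last 6 of these between -0.60 and -0.36. Sdha, called in the comparison of withdrawn with LIF2i cells at -0.55, was at -0.25 ± 0.12 (SE), adjusted p = 0.132 here. Both comparisons use the same LIF2i libraries, so the values are not independent. No mitochondrial member was called (0 of 13, with 3 at an unadjusted p under 0.05, beside 46.6% of all genes, and 2 raised in DESeq2, beside 21.4%), and 12 of 13 were above 0. Of all genes, 49.5% were below 0, and without replicate 1, 10 of 13 mitochondrial members were above 0. mt-Nd3 was at 0.87 ± 0.32 (SE), adjusted p = 0.0605 and mt-Co1 at 0.54 ± 0.20 (SE), adjusted p = 0.055. Without replicate 1, 42 nuclear members were lowered and 1, Cox6b2, was raised (0.56, adjusted p = 0.0237), where 19.4% of all genes were lowered and 22.3% raised. The 10 were all among the 42. Without replicate 2 or 3 the count was 2 lowered each (all genes 10.02% or 6.68%), and without the block it was 1 (all genes 8.1%). With the length offset it was 8 (all genes 13.6%), with 0 in the ATP synthase. Leaving out single libraries gave 39 without LIF2i replicate 1 (all genes 17.8%) and 3 without LIF2i replicate 2 or 3 (all genes 13.4% or 10.8%). It gave 2 and 3 without CK666 replicate 2 and 3 (all genes 11.1% and 10.1%) and 6 without withdrawn replicate 3 (all genes 13.96%).

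Some genes that feed electrons and fuel to the chain were lowered by withdrawal. Of 14 citric acid cycle genes, 7 were lowered and 0 raised (median log2 fold change -0.34), against 19.7% of all genes lowered. Without the block 4 were lowered, beside 10.8% of all genes. Idh2, the mitochondrial NADP-linked isocitrate dehydrogenase, read 194, 327 and 272 CPM with LIF2i, 74.3, 104 and 84.9 after withdrawal and 81.5, 140.0 and 110.3 with CK666 (-1.57 ± 0.11 (SE), adjusted p = 1.33e-05), and the withdrawn libraries lay far below the LIF2i libraries. Sucla2 (-0.55), Idh3b (-0.52), Idh3g (-0.51) and Ogdh (-0.38), other enzymes of the cycle, were also lowered. Of 18 genes for pyruvate entry and uncoupling, 10 were lowered and 1, Pdk1, was raised (median -0.35), where 19.7% of all genes were lowered and 21.1% raised. Without the block these counts were 5 and 0 (all genes 10.8% lowered and 13.1% raised). With the length offset they were 7 and 1 (all genes 16.6% and 17.95%) and on log2 TPM 5 and 1 (all genes 14.79% and 18.66%). The 10 lowered genes include both subunits of the mitochondrial pyruvate carrier, Mpc1 (-2.47 ± 0.22 (SE), adjusted p = 4.33e-05) and Mpc2 (-1.06), and Ldhb, a lactate dehydrogenase subunit (-3.28). Mpc1 read 25, 35.8 and 25.3 CPM with LIF2i, 3.86, 5.87 and 5.72 after withdrawal and 8.86, 17.9 and 8.94 with CK666. Mpc1 and Pdk4, a kinase that restrains pyruvate dehydrogenase, were called raised by CK666 during withdrawal, Mpc1 by 1.16 ± 0.22 (SE), adjusted p = 0.036 and Pdk4 by 0.96 ± 0.20 (SE), adjusted p = 0.0433. In this list 2 of 18 genes were raised, where 1.15% of all genes were, and with the length offset or on log2 TPM 0 were. Without the block both calls were lost (adjusted p = 0.354 and 0.682). These lists were written with earlier results of these data known.

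Few genes that build the complexes or keep mitochondrial DNA were called. Among 50 tested assembly factors, withdrawal raised 4 and lowered 6 (median -0.093), where 21.1% of all genes were raised and 19.7% lowered. Without the block, where 13.1% of all genes were raised and 10.8% lowered, 0 were raised and 2 lowered, Sco1 and Coa5, and with the length offset 1 was raised and 2 lowered (median 0.022). The lowered ones include the copper chaperone Sco1 (-0.77 ± 0.13 (SE), adjusted p = 0.00172) and Coa5 (-0.76), both needed for complex IV, and Ndufaf5 (-0.68), needed for complex I. Ndufaf6 (0.79) and Sco2 (1.61) were among the raised. Without the block the adjusted p was 0.0583 for Ndufaf6, 0.1 for Sco2 and 0.144 for Ndufaf5. Of 20 genes for upkeep and transcription of mitochondrial DNA, 2 were raised and 1 lowered, and without the block 2 and 0. The raised were Polg, the catalytic subunit of the mitochondrial DNA polymerase, at 155, 203 and 168 CPM with LIF2i, 366, 451 and 373 after withdrawal and 305, 279 and 443 with CK666 (1.18 ± 0.18 (SE), adjusted p = 0.000825), and Twnk, the replicative helicase, at 30.3, 26.1 and 32.1 CPM with LIF2i, 66.3, 68.5 and 58.6 after withdrawal and 51.6, 40.4 and 40.2 with CK666 (1.13 ± 0.15 (SE), adjusted p = 0.000325). Both were higher in every withdrawn and CK666 library than in any LIF2i library. Of 18 tested genes for mitochondrial RNA handling, 1 was raised and 3 lowered, and of 21 for cristae and import, 1 was raised and 5 lowered. Without the block 1 was raised and 1 lowered in each of these lists. In these 4 lists CK666 during withdrawal changed 1 gene, Fastkd5, where 1.15% of all genes were raised and 0.894% lowered. Fastkd5, which acts on mitochondrial RNA, read 26.3, 17.8 and 25.9 CPM in withdrawn and 7.54, 5.49 and 7.37 in CK666 libraries (-1.77 ± 0.23 (SE), adjusted p = 0.0188). That call was lost without the block (adjusted p = 0.268).

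Of 15 tested regulators and related genes, withdrawal raised 6 and lowered 4, where 21.1% of all genes were raised and 19.7% lowered. Without the block 2 were raised and 3 lowered (all genes 13.1% and 10.8%), without replicate 1 it was 3 and 4 (all genes 23.7% and 21.0%), and with the length offset 4 and 4 (all genes 17.9% and 16.6%). Esrrb, an estrogen-related receptor that also marks self-renewing ESCs, read 1089, 683 and 867 CPM with LIF2i, 20.7, 34.2 and 34.8 after withdrawal and 48.5, 129 and 48.5 with CK666 (-4.95 ± 0.44 (SE), adjusted p = 8.74e-05). Gabpa, the DNA-binding subunit of GABP, read 209, 174 and 179.9 CPM with LIF2i, 125, 106 and 107 after withdrawal and 111, 96.5 and 92.7 with CK666 (-0.74 ± 0.097 (SE), adjusted p = 0.000369), with no overlap between LIF2i and the other groups. Stat3, which LIF activates, was lowered as well (-1.80). Myc read 4.08, 0.784 and 2.19 CPM with LIF2i, 52.3, 13.8 and 49.2 after withdrawal and 41.3, 5.61 and 10.2 with CK666 (4.15 ± 0.36 (SE), adjusted p = 3.68e-05), and its withdrawn replicate 2 library was well below the other 2. Yy1 (0.52), Creb1 (0.50), Gabpb1 (0.38) and the coactivator Ppargc1b (0.86) were raised, but without the block none of these 4 was called (adjusted p = 0.055, 0.127, 0.0948 and 0.0883). The list also holds Ndufa4l2, a paralogue of the complex IV subunit Ndufa4 known for its induction in low oxygen, which is not a regulator. It read 8.55, 100 and 69 CPM with LIF2i, 3.86, 17.9 and 18.4 after withdrawal and 0.427, 1.76 and 1.06 with CK666 and was called lowered by withdrawal (-1.90 ± 0.26 (SE), adjusted p = 0.000506) and further by CK666 during withdrawal (-3.66 ± 0.34 (SE), adjusted p = 0.00743). Without the block both calls were lost (adjusted p = 0.093 and 0.334). Whether any regulator accounts for a member's change was not tested.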

How the data were processed

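Poly-A RNA of 9 libraries was quantified per transcript. Per the file headers, the authors deposited estimated counts, TPM and an effective length (in bases, another per-library column) for 119414 transcripts. The deposited estimated counts are not normalised, and the deposited TPM values are scaled within a library after division by effective length. The submitters' processing notes name FastQC, cutadapt 1.8.1, kallisto and sleuth and the builds mm10 and GRCh38, without their roles, and whether counting used strand is not given in the sources used here. Where reads match several genes they were divided between them, which bears on the mitochondrial copies and on 13 members with at least 10% exonic overlap.

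Transcripts were joined to GENCODE M21 (GRCm38) by Ensembl identifier, which named a gene for 116640 (97.7%). The rest held 0.895% to 1.08% of counts. Gene sums were rounded. edgeR 4.0.16 (R 4.3.3; TMM, edgeR's expression filter, robust quasi-likelihood test) was fitted to all 9 libraries, with 4 residual degrees of freedom and the replicate number as a block. The study calls the replicates paired, and deviations from group means correlated between same-numbered libraries (r = 0.303 to 0.654). Replicates 2 and 3 of different groups also correlated with each other (r = 0.214 to 0.286). Only replicate 1 against another number was negative (r = -0.525 to -0.354), so these values mostly set replicate 1 apart. Calls need a p under 0.05 after Benjamini-Hochberg adjustment across 14648 genes, and standard errors come from the F statistic. The floor of 3 counts equals 0.134 to 0.179 CPM, for counting error only. Shared 31-base words were counted in GENCODE transcripts.

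Members named with values are the 13 mitochondrial genes, up to 10 called nuclear members per comparison and direction, the highest of each complex by TPM, isoform genes and complex II. Ndufa9, Ndufv1 and Atp5c1 were named after their values were seen, to complete a count of called members. Genes of other lists are named when called, at most 6 per list and direction. Some called genes are not reported here by name. The members and lists were chosen with earlier results of these data known. The fit was also run on simulated data, in which replicate effects were the same in every group and unrelated to gene length. That run does not test the shortfall of replicate 1 in short genes. Alternatives were no block, DESeq2 1.42.0 and its size factors, no filter, scaling without mitochondrial genes, protein-coding transcripts, a length offset, limma 3.58.1 on log2(TPM + 1), leaving out replicates or libraries, and, added after seeing the data, summing the nuclear copies.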

Additional observations from a re-analysis of the deposited data

How the results depend on the processing

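The fit has 3 libraries per group and 4 residual degrees of freedom, and short members have few counts in replicate 1. Of 123 results of members under the naming rule, which leaves out Ndufa9, Ndufv1 and Atp5c1, 29 were called, and all 29 kept their direction under all 21 alternatives. Of 2583 alternative values, 2331 kept their side of the threshold, 171 lost and 79 gained a call, and 2 changed sign with a call: Ndufa7 was lowered on withdrawal without replicate 1 (-0.32, adjusted p = 0.0297; highest 0.37, without replicate 3), and against self-renewal without LIF2i replicate 1 (-0.31, adjusted p = 0.0465; highest 0.33, without LIF2i replicate 2). A further 46 uncalled results changed sign somewhere. Scaling without mitochondrial genes changed no call of a named member.

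Without the replicate block, withdrawal raised 1919 and lowered 1590 genes, with 2 nuclear members lowered and 0 mitochondrial raised; CK666 during withdrawal changed 0 genes; and CK666 against self-renewal raised 1779 and lowered 1187, with 1 nuclear member lowered. For CK666 during withdrawal, genes raised and lowered were 584 and 556 with DESeq2, 327 and 238 without the filter, 88 and 60 with the length offset and 14 and 28 on log2 TPM. DESeq2 lowered 2 nuclear members there (all genes 3.8%), and against self-renewal it raised 1 nuclear and 2 mitochondrial members (all genes 21.4%). On log2 TPM 1 nuclear member was raised in withdrawal and 1 against self-renewal, and 1 mitochondrial member in each (all genes 18.7% and 16.0%). Without the filter 1 mitochondrial member was raised in each of these comparisons (all genes 13.5% and 12.9%). With the length offset or the copies summed it was 1 against self-renewal (all genes 16.5% or 19.9%).

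Leaving out a replicate or a library gave these ranges. On withdrawal, 1671 to 3491 genes were raised and 1428 to 3097 lowered, 0 to 2 nuclear members raised and 3 to 45 lowered, and 0 to 6 mitochondrial raised. For CK666 during withdrawal, 0 to 900 genes were raised and 0 to 911 lowered, 0 to 3 nuclear members raised and 0 to 3 lowered, and 0 to 5 mitochondrial lowered. Against self-renewal, 1413 to 3278 genes were raised and 1000 to 2851 lowered, 0 to 2 nuclear members raised and 2 to 42 lowered, and 0 to 2 mitochondrial raised. The cause of these shifts was not tested.

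As shares of estimated counts, the mitochondrial genes held 0.879%, 1.09% and 1.19% in the LIF2i, withdrawn and CK666 groups, and the nuclear members 1.04%, 0.858% and 0.918%. With copies added, the mitochondrial TPM share was 2.18%, 2.68% and 2.71% in the same order, and over protein-coding transcripts 2.13%, 2.6% and 2.73%.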

Other observations

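Some nuclear members have a transcribed relative with counts of its own. Ndufb4 shares 19.1% of its 31-base words with the processed pseudogene Ndufb4c. Ndufb4c had 51.1 ± 27 CPM with LIF2i, 20.1 ± 10.03 after withdrawal and 27.2 ± 13.6 with CK666 (SD, n = 3), beside 33.2 ± 15, 13 ± 5.53 and 13.2 ± 5.39 for Ndufb4. Its log2 fold change on withdrawal was -1.32 ± 0.16 (SE; edgeR adjusted p = 0.000197), close to the -1.34 of Ndufb4. The pseudogene Gm10175 had 165 ± 88.6 CPM with LIF2i against 22.5 ± 9.17 for its parent Atp5g2, and neither was called on withdrawal. Gm10053, annotated as protein-coding, had 51.1 ± 3.57 CPM with LIF2i against 75 ± 12.6 for Cycs. How far reads of parent and copy were exchanged was not tested.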
